A study of Mus musculus with 15 samples.

Results

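Splicing factors and heterogeneous nuclear ribonucleoproteins (hnRNPs) were followed in mouse cortex 1 month after repeated head impact. Members were the listed transcripts of type protein coding whose gene symbol in the GENCODE M21 annotation begins with Srsf and a digit, Hnrnp, Sf3a, Sf3b, Snrnp, Snrpa to Snrpg, or Rbfox. The rule used names alone and no measured value. It found 71 coding transcripts of 48 genes among 10370 listed transcripts. They comprise 15 transcripts of 10 SR protein genes, 32 of 19 hnRNP genes, 7 of 7 SF3A and SF3B genes, 9 of 9 snRNP protein genes and 8 of 3 Rbfox genes. A further 15 transcripts of the same genes carry a retained intron or another form that is not annotated as coding, and these are described separately. Of 61 matching genes in the annotation, 13 had no coding transcript listed and were not analysed here: Hnrnph3, Sf3a2, Sf3b4, Snrnp25, Snrnp35, Snrnp40, Snrnp48, Snrpa, Snrpa1, Snrpd3, Snrpf, Snrpg and Srsf9.

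The study took cortex from male C57BL/6 mice that the labels give as 12 weeks old. High-frequency head impact (HF-HI) mice were anesthetized with isoflurane and struck on the head several times a day on consecutive days. Isoflurane and handling were common to both groups, and Sham animals were not struck. The series holds 7 Sham and 8 HF-HI libraries of total RNA, which are the replicates here.

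Splicing removes introns from a new RNA and joins its exons. The U1 snRNP pairs with the 5′ splice site, SF3A and SF3B hold the U2 snRNP at the branch point, and the Sm proteins (Snrpb, Snrpd, Snrpe) form the ring around these small RNAs. SR proteins bind exons and usually favour their inclusion, many hnRNPs oppose it, and Rbfox proteins bind UGCAUG next to exons used in neurons. Many SR protein and hnRNP genes are known to limit their own output through transcript forms with a retained intron or an early stop codon.

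Values are given as normalized counts, recovered from the deposited variance-stabilized (VSD) values by inverting the transformation. Tests were made on the VSD itself with limma, HF-HI minus Sham, over all 10370 transcripts. A transcript is called higher or lower at an unadjusted p under 0.05, and p-values were also adjusted over all transcripts, with a threshold of 0.1. Low counts are compressed on this scale, where going from 100 normalized counts to double that adds 0.20, and from 1000 adds 0.53.

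HF-HI libraries were shallower. Size factors, which measure relative depth, were 0.818 to 1.47 for Sham and 0.501 to 1.22 for HF-HI libraries, and the mean log2 size factor differed by −0.55 (exact permutation test, two-sided p = 0.0258). HF-HI replicate 2 stood apart on the first principal component, at 12.6 against −3.35 to 0.721 elsewhere. In that library the 2 listed of 5 choroid plexus markers summed to 13832 normalized counts, while Sham libraries ran from 1972 to 11212. All 6 excitatory cortical markers were listed, at 7297 to 8488 in Sham and 7164 to 8660 in HF-HI. The 8 listed of 9 striatal markers, without Drd2, summed to 7110 to 10830 in Sham and 5063 to 10294 in HF-HI, with 3 of their 15 transcripts called lower. Sums for astrocytes (5 of 5 markers), oligodendrocytes (5 of 5), microglia (5 of 5), inhibitory neurons (5 of 5), endothelium (3 of 4, without Pecam1) and neurons in general (4 of 4) overlapped between groups, with 1 pan-neuronal transcript called higher and 1 called lower. The part of dissection and depth in the results was not tested beyond the fits given. In bulk tissue, fewer cells of a type and less RNA per cell cannot be told apart.

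Of the 71 coding transcripts, 8 were called, against 8.83% of all transcripts (916 of 10370). Srsf10-202, Hnrnpul2-201 and Hnrnpk-214 were higher in HF-HI, and Srsf10-204, Hnrnpm-201, Hnrnpll-205, Hnrnph2-202 and Snrpc-201 were lower. Higher calls made up 4.94% and lower calls 3.9% of the whole table. No member passed the adjusted threshold, nor did any of the 10370 transcripts (0%), and the smallest adjusted p among members was 0.422 (limma, Benjamini-Hochberg). The share of members called, 11.3%, lay near that of the table. The median VSD difference of the members was −0.0055, with −0.0013 over all transcripts, and the median size of the difference was 0.022 against 0.023. No member had groups that did not overlap, against 0.154% of all transcripts.

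Fits that took depth into account called fewer members. With the log2 size factor as a covariate 2 of 71 members were called, Snrpc-201 and Srsf11-202, both lower, where 5.14% of all transcripts were called. In the libraries with a size factor above 0.8, which are all 7 Sham and 5 HF-HI, 5 members were called, where 6.33% of all transcripts were: Hnrnpm-201, Snrpc-201, Srsf11-202, Hnrnph2-202 and Srsf10-202. Snrpc-201 was therefore the only one of the 8 called in each of these 3 fits. Leaving out 1 library at a time gave 5 to 10 called members, with 5 on leaving out Sham replicates 1, 4 or 6 or else HF-HI replicate 3. Over all 10370 transcripts these fits called 748 to 987.

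**Figure D1:**
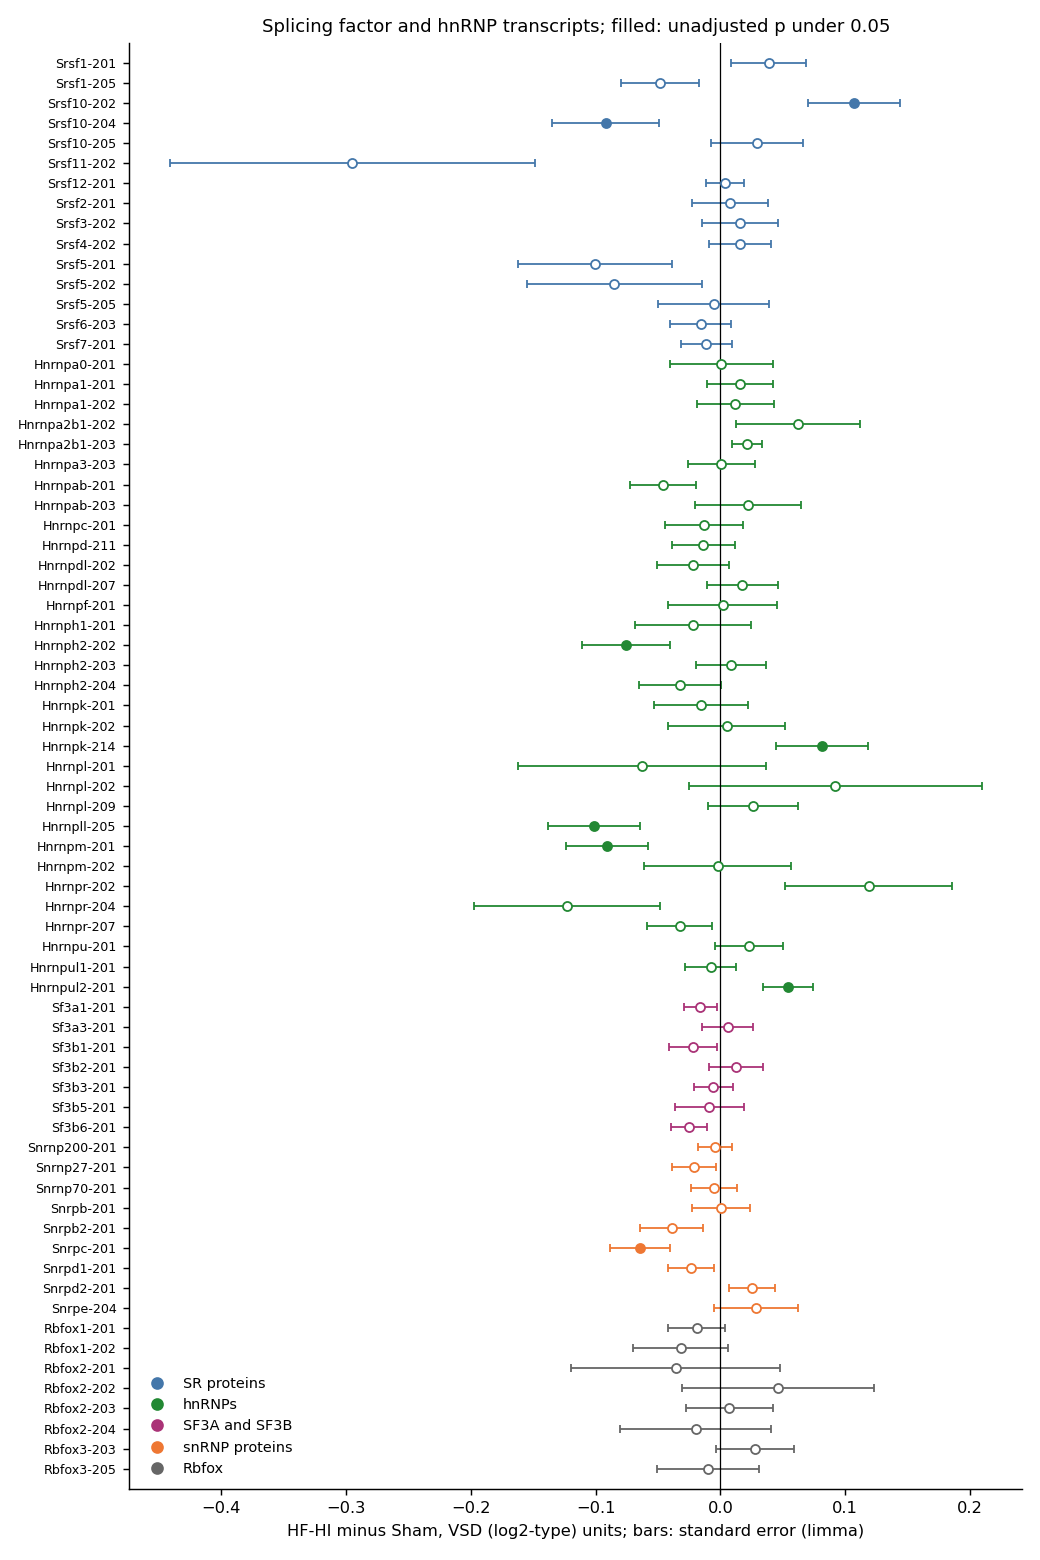
VSD difference, HF-HI minus Sham, of each of the 71 coding transcripts (horizontal axis, VSD units; bars, standard error from limma), coloured by family, with filled points for an unadjusted p under 0.05. Most points lie within 0.1 of zero, the SF3A and SF3B transcripts span −0.025 to 0.012, and Srsf11-202 has the widest error.

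The members were moderately abundant. Per kilobase of transcript, mean levels over all libraries ran from 19.8 normalized counts for Rbfox2-204 to 759 for Rbfox1-201, the neuronal splicing regulator. Hnrnpa2b1-203 followed at 735 per kilobase, Hnrnpk-201 at 631 and Hnrnpa1-202 at 504. Snrnp70-201, the U1-70K protein of the U1 snRNP, reached 478 per kilobase and Srsf5-201, the most abundant coding SR transcript on this scale, 417. Median levels per kilobase were 150 for SR proteins, 152 for hnRNPs, 116 for SF3A and SF3B, 203 for snRNP proteins and 178 for Rbfox.

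Among SR proteins, both called transcripts belonged to Srsf10, a factor known to repress splicing when dephosphorylated. Srsf10-202 (ENSMUST00000097844) and Srsf10-204 (ENSMUST00000105853) span the same interval, chromosome 4, 135855747 to 135865815 on the plus strand of GRCm38. Their annotated exons differ in 3 coding bases alone, at 135863523 to 135863525, where a later exon can start at either of a pair of adjacent splice acceptors. The joined exons are shown because everything that separates these transcripts lies in the capitals, with 30 bases on each side.
Srsf10-204: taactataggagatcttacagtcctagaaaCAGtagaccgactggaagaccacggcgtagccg
Srsf10-202: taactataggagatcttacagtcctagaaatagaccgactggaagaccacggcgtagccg

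Srsf10-202, without the CAG, had 89.6 (lowest), 108 (median) and 158 (highest) normalized counts in Sham against 99.4, 182 and 222 in HF-HI. In all, 5 of the 8 HF-HI libraries exceeded every Sham library, and HF-HI replicate 5 was within the lower Sham values. Means were 120 ± 28.7 and 176 ± 44.8 (SD), a VSD difference of 0.11 with a standard error of 0.037 and a log2 ratio of means of 0.55 (limma, unadjusted p = 0.0105, adjusted p = 0.422). The call held without any single library and was lost with the depth covariate (unadjusted p = 0.159).

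Srsf10-204, with the CAG, ran the other way, at 236, 313 and 340 normalized counts in Sham against 139, 220 and 343 in HF-HI. Of the HF-HI libraries, 5 lay below every Sham library, and replicate 5 lay above them all. Its means were 301 ± 44.1 and 239 ± 69.9, a VSD difference of −0.092 (standard error 0.043, limma unadjusted p = 0.0488, adjusted p = 0.562). Leaving out any of Sham replicates 1, 2, 4, 5 and 6, or of HF-HI replicates 1, 2, 3, 4 and 6, ended it, at unadjusted p-values of 0.0703 to 0.097.

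The gene sum of Srsf10 was not called. Sham libraries summed to 521 to 693 normalized counts and HF-HI libraries to 554 to 671, with means of 609 ± 50.4 and 621 ± 47.2 (voom log2 difference 0.04, standard error 0.057, unadjusted p = 0.493). As a share of the gene, Srsf10-204 took 49.4% ± 6.64 in Sham and 38.2% ± 9.21 in HF-HI, and Srsf10-202 took 19.98% ± 5.89 and 28.5% ± 7.51. Both shares were called (limma on log odds, unadjusted p = 0.0164 and 0.0286, adjusted p = 0.734 for both). The share of Srsf10-202 was not called on leaving out any of Sham replicates 1, 4 and 5 or of HF-HI replicates 3, 6 and 7 (unadjusted p = 0.0518 to 0.0613). With the depth covariate neither share was called (unadjusted p = 0.099 for Srsf10-204 and 0.366 for Srsf10-202), and with size factors above 0.8 that of Srsf10-202 was not (unadjusted p = 0.131). The third form, Srsf10-205, also holds the CAG but ends in another last exon, and had 189 ± 48.9 and 205 ± 39.9 normalized counts.

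Only reads across the junction shown can tell the pair apart, and these were not counted. The stretches below were compared with all annotated transcripts, not within the pair. Of 2956 stretches of 100 bases in Srsf10-202, 0 were in no other annotated transcript, and of 2959 in Srsf10-204 there were 44. In addition, 12.8% and 12.9% of these stretches recur in another annotated gene. The counts of either form thus rest mostly on the apportioning of shared reads by the counting program, and the part of that step in the difference was not tested.

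In Srsf11, an SR-related protein, 3 HF-HI libraries differed from the other 12 libraries. Its coding form Srsf11-202 (ENSMUST00000072875) had 285, 343 and 386 normalized counts in Sham. In HF-HI it had 0 in replicate 3, 1.64 in replicate 5 and 18.5 in replicate 2, which are 0, 2 and 12 reads, while the other 5 libraries lay between 282 and 417. The group test gave a VSD difference of −0.295 with a standard error of 0.146 (limma, unadjusted p = 0.0618, adjusted p = 0.590), so Srsf11-202 was not called. It was called without HF-HI replicate 4, 6, 7 or 8 (unadjusted p = 0.03 to 0.047), with the depth covariate and in the libraries with a size factor above 0.8. The 3 libraries had size factors of 0.650 (replicate 2), 1.16 (replicate 3) and 1.22 (replicate 5). The part of depth in the missing reads was not tested.

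In the same 3 libraries a form with a retained intron, Srsf11-213 (ENSMUST00000152274), was highest. It had 344 normalized counts in HF-HI replicate 3, 284 in replicate 5 and 375 in replicate 2, against 114 to 193 in the remaining 12 libraries of both groups. Overall it had 114, 169 and 186 in Sham and 174, 193 and 375 in HF-HI, where 7 of 8 libraries exceeded every Sham library. Means were 160 ± 27.6 and 243 ± 80.4, a VSD difference of 0.13 with a standard error of 0.045 (limma, unadjusted p = 0.0104, adjusted p = 0.422). The call was made in all 25 alternatives that could be run for this transcript, the depth covariate included, at unadjusted p-values from 0.00608 to 0.0252. No alternative left out HF-HI replicates 2, 3 and 5 together, so dependence of the call on these libraries was not tested. Of the 15 listed forms of the member genes that are not annotated as coding, Srsf11-213 was the only one called, a share of 6.67% against 8.83% of all transcripts. Its share of the gene was 16.9% ± 2.71 in Sham and 28.8% ± 13.6 in HF-HI (unadjusted p = 0.0221, adjusted p = 0.734), with values up to 51.6%.

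Srsf11-213 begins inside an intron and keeps 472 of its bases, chromosome 3, 158022951 to 158023422 on the minus strand (GRCm38), before the exon that Srsf11-202 also uses. The last 60 of these bases, chr3:158022951-158023010, are shown with the splice acceptor in capitals, since they belong to the intron that Srsf11-213 keeps. The forms also differ at both ends: Srsf11-202 has 134 and 315 further bases upstream, and Srsf11-213 has 275 further bases at its 3′ end.
Srsf11-213 intron end: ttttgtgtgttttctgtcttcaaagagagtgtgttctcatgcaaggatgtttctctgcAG

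The third listed form, Srsf11-208, also annotated with a retained intron, had 442 ± 44.5 and 430 ± 46.0 normalized counts. The sum over the 3 forms was 728 to 780 in the libraries that lacked Srsf11-202 and 808 to 1104 elsewhere, and the gene was not called (voom log2 difference −0.12, unadjusted p = 0.151). Among all listed transcripts, 37 were under 0.1 of their own median in at least 3 libraries, and Srsf11-202 was the only one to do so in exactly these 3. These libraries were picked by the values of Srsf11-202 itself, so its being alone in them is not a test. Of the 135 transcripts at 0 in some library, 116 belong to genes with several listed transcripts, as do 4138 of all 10370. The values at 0 were 50 in Sham and 109 in HF-HI libraries. In Srsf11-202, 6 of 2555 stretches of 100 bases were in no other annotated transcript, and in Srsf11-213 200 of 2853. Whether the coding form was absent or its reads were assigned elsewhere was not tested.

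**Figure D2:**
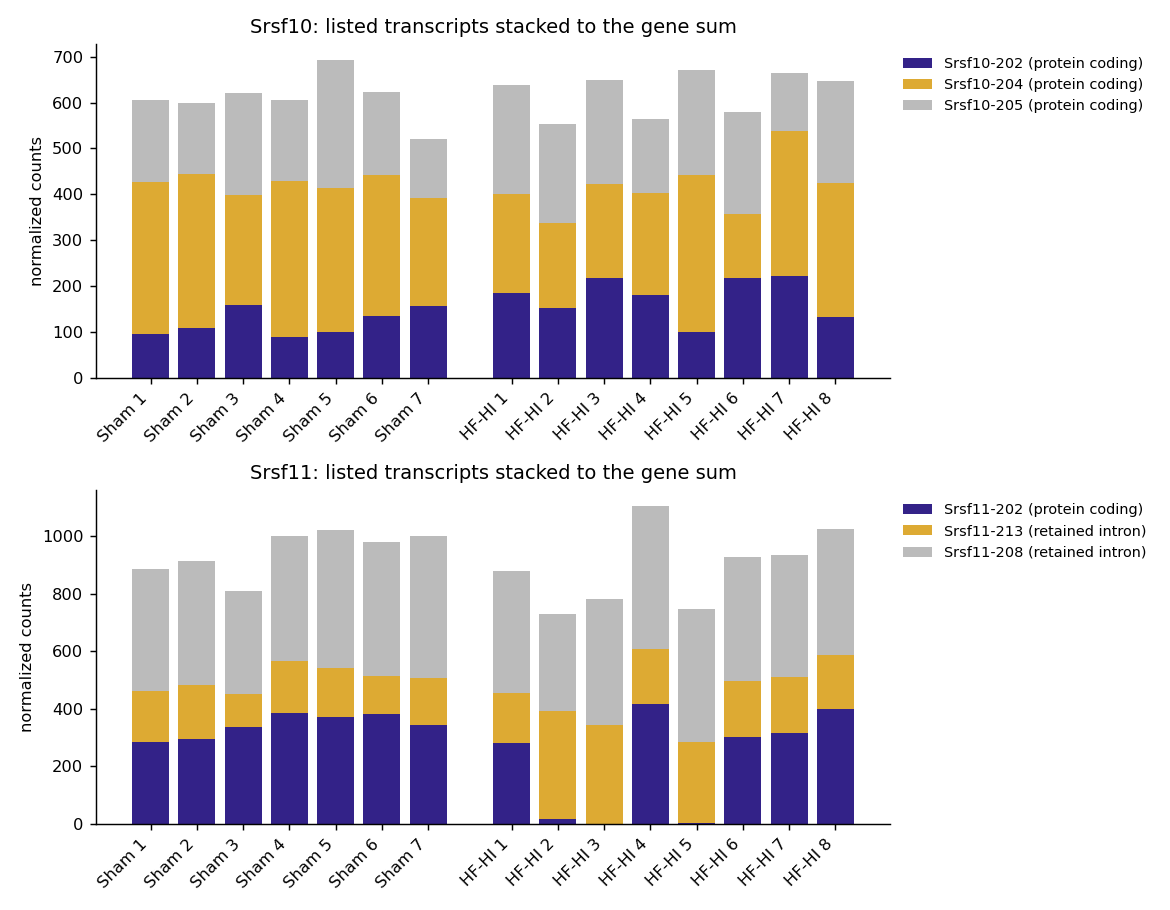
Normalized counts of the listed transcripts of Srsf10 (top) and Srsf11 (bottom) stacked for each of 7 Sham and 8 HF-HI libraries. The height is the gene sum, and Srsf11-202 is missing or nearly so from HF-HI replicates 2, 3 and 5, where Srsf11-213 reaches 284 to 375.

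The other SR protein transcripts were not called. Srsf5 had the lowest fitted values after Srsf11: Srsf5-201 had 698 ± 156 normalized counts in Sham against 584 ± 139 in HF-HI (VSD difference −0.10, unadjusted p = 0.125), and Srsf5-202 had 254 ± 91.7 and 197 ± 69.0 (unadjusted p = 0.243). The gene sum of Srsf5 was 2448 ± 206 in Sham and 2253 ± 177 in HF-HI, with all 8 HF-HI libraries below the Sham median. It was not called (voom log2 difference −0.11, unadjusted p = 0.0656). Without HF-HI replicate 4 Srsf5-201 was called (VSD difference −0.13, limma unadjusted p = 0.0355). Like the Srsf10 pair, Srsf5-201 and Srsf5-202 differ in coding sequence by CAG at an exon start, on chromosome 12, 80949717 to 80949719, plus strand. It is shown here because the same bases mark a second SR gene.
Srsf5-202: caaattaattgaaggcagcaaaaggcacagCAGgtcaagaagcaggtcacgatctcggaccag

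Srsf1, the classical exon enhancer-binding factor, had 1621 ± 121 and 1592 ± 44.1 normalized counts over both coding forms. Its Srsf1-205 had a VSD difference of −0.048 (unadjusted p = 0.143) and Srsf1-201 one of 0.039 (unadjusted p = 0.220). Srsf2-201 had 668 ± 71.2 and 677 ± 71.1, Srsf3-202 684 ± 61.0 and 704 ± 85.2, Srsf6-203 755 ± 35.2 and 736 ± 71.1, and Srsf7-201 649 ± 54.3 and 635 ± 31.9. For the Srsf1 sum, Srsf2-201, Srsf3-202, Srsf6-203 and Srsf7-201 the difference between groups was smaller than either standard deviation.

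Of 32 hnRNP transcripts, 5 were called (15.6%, against 8.83% of all transcripts), 2 higher and 3 lower. Hnrnpul2-201 (ENSMUST00000096753, chromosome 19, 8820010 to 8834143, plus strand), a relative of Hnrnpu, had 1057, 1095 and 1258 normalized counts in Sham against 1129, 1206 and 1276 in HF-HI. All 8 HF-HI libraries exceeded the Sham median, and only Sham replicates 4 and 5 reached into the HF-HI range. Means were 1119 ± 70.7 and 1207 ± 50.4, a rise of 7.86% (VSD difference 0.054, standard error 0.020, limma unadjusted p = 0.0156, adjusted p = 0.460). It is the only listed transcript of its gene, and 84.7% of its stretches of 100 bases occur in no other annotated transcript, the clearest assignment among the called members. The call was lost with the depth covariate and in the libraries with a size factor above 0.8, at unadjusted p-values of 0.0578 and 0.0705.

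Hnrnpk, a KH-domain protein that binds cytosine-rich RNA, was called only in a short form. Hnrnpk-214 (ENSMUST00000176849, chromosome 13, 58394348 to 58402142, minus strand) was at 85.8, 154 and 193 normalized counts for Sham and 127, 173 and 272 for HF-HI. The groups overlapped, with HF-HI replicates 3 and 4 above every Sham library. Means were 141 ± 37.3 and 185 ± 43.4 (VSD difference 0.082, standard error 0.037, limma unadjusted p = 0.0418, adjusted p = 0.554). The call ended on leaving out any of Sham replicates 1, 4 and 6 or of HF-HI replicates 3, 4, 7 and 8 (unadjusted p = 0.0525 to 0.1). The main form Hnrnpk-201 had 1705 ± 117 and 1676 ± 189.

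Hnrnpk-214 ends before the last exons of Hnrnpk-201. It also lacks an exon of 72 coding bases, chr13:58396188-58396259 on the minus strand, printed because it is the coding difference inside the stretch that both forms span. Only 1 of 905 stretches of 100 bases in Hnrnpk-214 is in no other annotated transcript, and 38.3% recur in another gene.
Hnrnpk-201 exon: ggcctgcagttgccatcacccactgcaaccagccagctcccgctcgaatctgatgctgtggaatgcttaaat

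Hnrnpm, which binds GU-rich RNA, was lower in a single form. Hnrnpm-201 (ENSMUST00000087582, chromosome 17, 33646239 to 33685419, minus strand) had 225, 269 and 333 normalized counts in Sham against 130, 229 and 264 in HF-HI. No HF-HI library exceeded the Sham median, and 4 lay below every Sham library. Means were 279 ± 40.9 and 218 ± 43.5 (VSD difference −0.091, standard error 0.033, limma unadjusted p = 0.0141, adjusted p = 0.448). Hnrnpm-202 had 257 ± 13.5 and 267 ± 101 and was not called (unadjusted p = 0.970). In HF-HI replicate 4, the shallowest library, both forms were low, at 130 and 71.9, and their sum, 201.7, stood below the Sham range of 482 to 584.

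Hnrnpm-202 contains 117 coding bases that Hnrnpm-201 leaves out, chr17:33666530-33666646 on the minus strand. The segment is shown because its first and last bases, in capitals, are GT and AG, which canonical introns also have at their ends. Whether it is a separate exon of Hnrnpm-202 or lies inside a larger one was not examined. Neither form had a stretch of 100 bases that was in no other annotated transcript.
Hnrnpm-202 segment: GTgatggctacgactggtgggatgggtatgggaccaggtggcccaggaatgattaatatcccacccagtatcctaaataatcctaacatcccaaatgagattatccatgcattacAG

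Hnrnpll, known for switching exons of the CD45 gene in T cells, was lower in its coding form. Hnrnpll-205 (ENSMUST00000184635, chromosome 17, 80029487 to 80062227, minus strand) had 245, 280 and 337 normalized counts in Sham against 115, 219 and 309 in HF-HI. Below every Sham library lay 5 HF-HI libraries, with HF-HI replicate 2 lowest and replicate 6 above the Sham median. Means were 285 ± 29.1 and 219 ± 57.6 (VSD difference −0.10, standard error 0.037, limma unadjusted p = 0.0147, adjusted p = 0.450). Its share of the gene fell from 44.6% ± 4.11 to 36.0% ± 7.36 (unadjusted p = 0.0183, adjusted p = 0.734). The forms with a retained intron, Hnrnpll-204 (123 ± 27.9 and 141 ± 32.3 normalized counts) and Hnrnpll-207 (232 ± 34.2 and 244 ± 27.3), were not called, and the gene sum had a log2 difference of −0.066 (unadjusted p = 0.266). Both the transcript and the share were lost with the depth covariate and in the libraries with a size factor above 0.8.

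Hnrnph2, an X-linked protein that binds runs of guanine, was lower in the form Hnrnph2-202 (ENSMUST00000059297, chromosome X, 134601286 to 134607054, plus strand). It had 563, 648 and 743 normalized counts in Sham against 472, 583 and 710 in HF-HI, with HF-HI replicates 1, 3 and 4 below every Sham library. Means were 665 ± 62.1 and 583 ± 90.8 (VSD difference −0.075, standard error 0.035, limma unadjusted p = 0.0486, adjusted p = 0.562). The call was lost in 11 of 15 fits with 1 library left out, without any Sham replicate but 3 or any of HF-HI replicates 1 to 5 (unadjusted p = 0.0523 to 0.0998). The 3 listed forms share their coding sequence and differ in the noncoding exon parts.

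**Figure D3:**
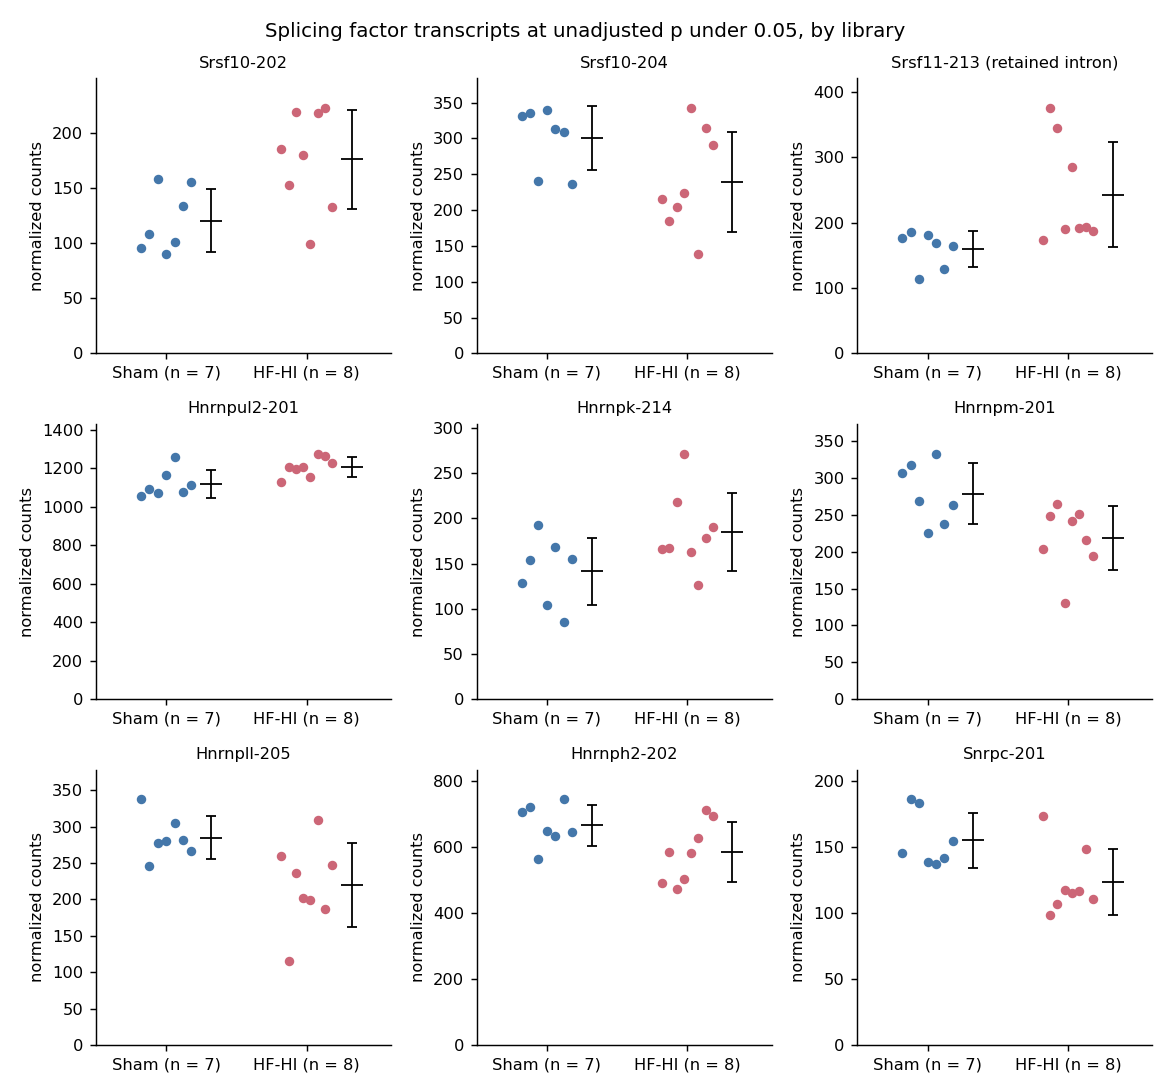
Normalized counts per library (points) for the 8 called coding transcripts and for Srsf11-213, with the mean and SD of 7 Sham and 8 HF-HI libraries as black bars. In every panel the groups overlap, and in Srsf11-213 the 3 highest HF-HI points, 284 to 375, stand clear of the rest.

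The remaining 27 hnRNP transcripts were not called. Hnrnpu-201, a chromatin-associated hnRNP and the most abundant member by count, had 3091 ± 148 and 3165 ± 179 normalized counts. Hnrnpa2b1-203 had the smallest spread of all members, 2.24% of its mean, with 1251 ± 19.9 and 1288 ± 34.0 and 7 of 8 HF-HI libraries above the Sham median (VSD difference 0.021, unadjusted p = 0.101). Hnrnpa1-202 had 865 ± 48.2 and 884 ± 112, Hnrnpc-201 915 ± 84.6 and 897 ± 86.8, Hnrnpd-211 678 ± 64.2 and 662 ± 51.0, and Hnrnph1-201 712 ± 97.3 and 688 ± 122. None of these differences exceeded the standard deviation of the groups, apart from that of Hnrnpa2b1-203. For Hnrnpa1-202, 52.8% of its stretches of 100 bases recur in another annotated gene, so its level is uncertain.

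Some forms traded between libraries without a group call, and these were picked after their values were seen. Hnrnpr-204 had 2.0 normalized counts, a single read, in HF-HI replicate 4, where Hnrnpr-202 had 363, and the gene sum of Hnrnpr was 906 ± 35.6 in Sham and 901 ± 67.6 in HF-HI. Hnrnpl-202 ran from 6.11 to 373 in Sham alone, and Hnrnpl-201 from 103 to 431, while the sum of Hnrnpl was 1227 ± 78.0 and 1274 ± 56.9.

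All 7 SF3A and SF3B transcripts, each the only listed transcript of its gene, were uncalled, with VSD differences from −0.025 to 0.012. Sf3b1-201, the subunit that contacts the branch point, had 2559 ± 91.1 normalized counts in Sham against 2500 ± 99.4 in HF-HI (VSD difference −0.022, unadjusted p = 0.277). Sf3a1-201 had 390 ± 17.1 and 376 ± 16.9 (unadjusted p = 0.234). Sf3b6-201, a small branch point protein, had 177 ± 10.4 and 164 ± 13.3 (VSD difference −0.025, unadjusted p = 0.0997).

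Among 9 snRNP protein transcripts only Snrpc-201 was called, which encodes the U1 snRNP protein that steadies pairing with the 5′ splice site. Snrpc-201 (ENSMUST00000071006, chromosome 17, 27840087 to 27851965, plus strand) had 137, 146 and 186 normalized counts in Sham against 98.5, 116 and 174 in HF-HI. Of the HF-HI libraries 6 lay below every Sham library, while HF-HI replicates 1 and 7 lay within the Sham range. Means were 155 ± 20.98 and 124 ± 25.0, a change of −20.5% (VSD difference −0.065, standard error 0.024, limma unadjusted p = 0.0166, adjusted p = 0.464). The call was made without each library in turn. In this transcript of 758 bases 0 of 659 stretches of 100 bases were in no other annotated transcript, and 8.35% recur in another gene.

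The other U1 protein listed, Snrnp70-201, had 832 ± 26.8 and 826 ± 54.3 normalized counts (unadjusted p = 0.783). Snrnp200-201, the U5 helicase that unwinds U4 from U6, had 1371 ± 25.8 and 1364 ± 42.7, a spread of 2.63%. Of the Sm ring, Snrpb-201 had 320 ± 19.0 and 321 ± 42.8, Snrpd1-201 185 ± 14.97 and 172 ± 21.7, Snrpd2-201 265 ± 20.2 and 283 ± 27.7 and Snrpe-204 137 ± 36.0 and 152 ± 34.3. None was called and their differences did not share a direction. Snrpb2-201, of the U2 snRNP, had 166 ± 20.8 and 146 ± 28.7 (VSD difference −0.039, unadjusted p = 0.142).

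No Rbfox transcript was called. Rbfox1-201 had 2348 ± 95.2 and 2300 ± 121 normalized counts and Rbfox3-203, a form of the NeuN gene used as a neuronal marker, 543 ± 43.1 and 575 ± 82.1. Summed per gene, Rbfox1 had 2652 ± 95.1 and 2578 ± 90.7 (voom log2 difference −0.037, standard error 0.029, unadjusted p = 0.217), Rbfox2 1893 ± 134 and 1912 ± 89.5, and Rbfox3 954 ± 72.5 and 977 ± 79.3. These values are relevant to neuronal content, which they do not separate from expression per cell.

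Reads were also summed over the listed transcripts of each gene and tested with voom. Of 48 member genes 3 were called, against 9.44% of all genes (731 of 7741): Snrpc (log2 difference −0.32, standard error 0.110, unadjusted p = 0.00938), Hnrnph2 (−0.12, standard error 0.044, unadjusted p = 0.0169) and Hnrnpul2 (0.10, standard error 0.041, unadjusted p = 0.0216). None passed the adjusted threshold, which 0.0129% of all genes did, and the smallest adjusted p among member genes was 0.372. The mean of 45 of the 48 genes differed by less than 10% between groups, the exceptions being Snrpc, Snrpb2 (−11.9%) and Snrpe (10.5%). The median log2 difference was −0.013, with 21 genes above and 27 below zero. For Hnrnph2, 6 of 8 HF-HI libraries lay below every Sham library (1097 ± 33.0 and 1008 ± 81.4 normalized counts). With the depth covariate Hnrnph2 was not called (voom, unadjusted p = 0.198), nor was Hnrnpul2 (unadjusted p = 0.0647). The same held with size factors above 0.8 (unadjusted p = 0.0811 and 0.0785), while Snrpc was called in both fits (unadjusted p = 0.00328 and 0.0233). Hnrnpul2 was also lost without Sham replicate 1 (log2 difference 0.09, voom unadjusted p = 0.052). Without Sham replicate 5 the count of called genes was 6, with Hnrnpa2b1, Sf3b6 and Srsf5 added, where 808 of all 7741 genes were called.

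Shares of a gene's reads were tested for the 60 listed transcripts of the 22 member genes with several. The test called 4, against 6.14% of all such transcripts (254 of 4138) and none at the adjusted threshold (0%): Srsf10-204 and Hnrnpll-205 lower, and Srsf10-202 and Srsf11-213 higher. The 2 Srsf10 shares are not independent, since they belong to 1 gene. Hnrnpm-201 and Hnrnph2-202, called as transcripts, were not called as shares.

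Forms not annotated as coding were listed for 9 member genes in this total RNA, with Sham means from 13.6% to 63.6% of a gene's listed counts. They comprise 11 retained-intron transcripts, 3 processed transcripts and 1 nonsense-mediated decay transcript. In Sham they held 63.6% ± 3.62 of the listed counts of Srsf11, 58.9% ± 4.01 of Hnrnph1, 55.4% ± 4.11 of Hnrnpll and 53.1% ± 3.97 of Srsf5. In HF-HI the same shares were 77.7% ± 17.9, 60.7% ± 5.56, 64.0% ± 7.36 and 56.8% ± 4.73. The retained-intron form Srsf5-212 alone had 1146 ± 143 and 1134 ± 144 normalized counts, more than any coding form of Srsf5. Of the other 5 genes, Hnrnpl had 34.2% ± 4.44 in Sham and 35.8% ± 3.22 in HF-HI, and Srsf6 had 13.6% ± 3.21 and 14.1% ± 3.32. The HF-HI mean was the lower one for Srsf3 (34.0% ± 3.71 and 30.4% ± 4.56), Srsf2 (26.9% ± 4.997 and 25.1% ± 5.03) and Hnrnpu (17.5% ± 1.44 and 17.3% ± 1.31). These summed shares were not tested. Total RNA includes nuclear RNA, in which introns are not yet removed, and the part of unprocessed RNA in these shares was not tested.

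**Figure D4:**
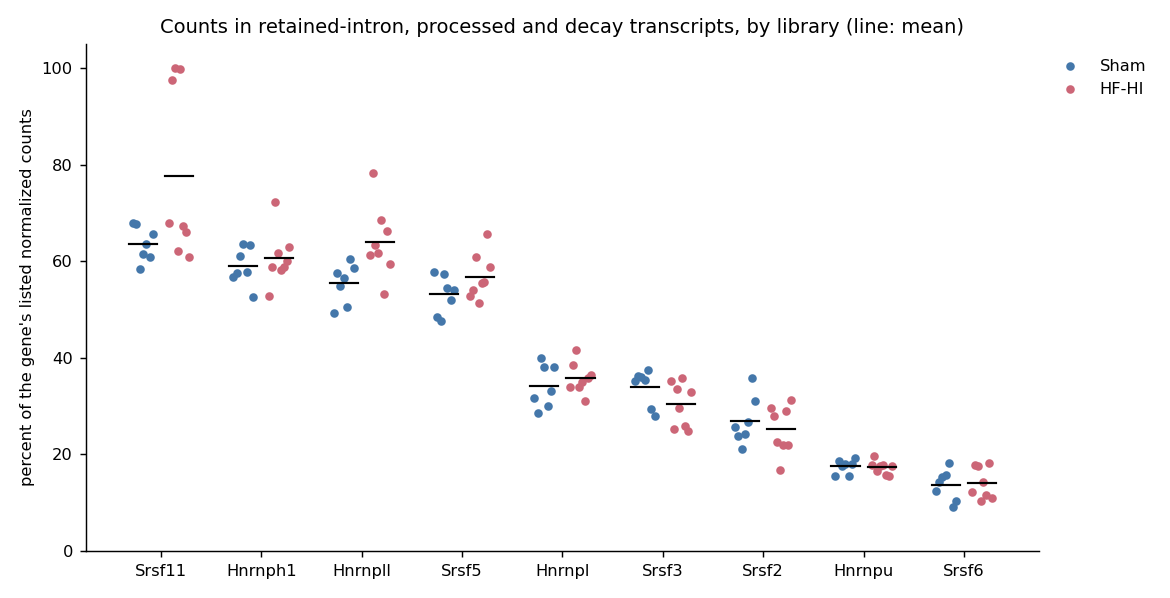
Percent of each gene's listed normalized counts found in transcripts not annotated as coding (vertical axis), for the 9 member genes with such transcripts, by library (points) and group mean (lines). Srsf11 reaches nearly 100% in 3 HF-HI libraries, while the group means of Hnrnpu and Srsf6 lie below 20%.

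Single transcripts varied far more between libraries than their gene sums. Within groups, the standard deviation of the 45 coding transcripts from genes with several listed transcripts had a median of 18.04% of the mean. For the 22 sums of these genes the median was 6.51%, and for the 26 genes with a single listed transcript 8.97%. In 20 of 22 genes the sum varied less than each of its coding transcripts, the exceptions being Hnrnpa2b1 and Hnrnpm. The spread that counting error alone would give had a median of 5.64% over all members. Sums usually vary less than their parts, so this describes the precision of each level and is not a test.

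**Figure D5:**
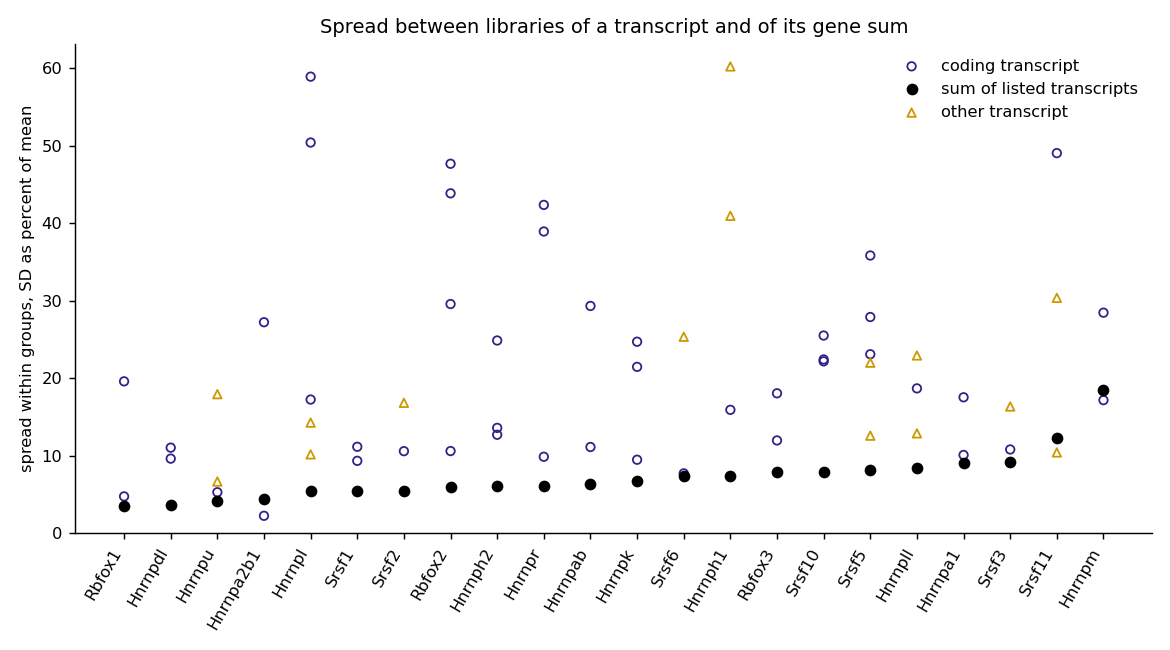
Within-group standard deviation as percent of the mean (vertical axis) for each listed transcript (open symbols) and for the sum (filled) of the 22 member genes with several listed transcripts. Sums lie between 3.55% and 18.5%, while single coding transcripts reach 58.9%.

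For context, a list of 116 other splicing genes (SR-related and RS-domain proteins, U2 auxiliary factors, neuronal splicing regulators, tri-snRNP and exon junction proteins) was tested in the same fit. It had 93 genes with 125 coding transcripts listed, and 9 were called against 8.83% of the table, 3 higher and 6 lower, none at the adjusted threshold. Bclaf1-201, an RS-domain protein, had 1552 ± 93.3 normalized counts in Sham against 1392 ± 77.1 in HF-HI (VSD difference −0.085, limma unadjusted p = 0.00246, adjusted p = 0.340). Nono-201, a paraspeckle protein, had 718 ± 23.4 and 673 ± 26.9 (unadjusted p = 0.0137). Nono-201 was called in all 26 alternatives. Of the U2 auxiliary factor, which recognises the 3′ splice site, U2af1-201 was lower, at 129 ± 20.8 and 102 ± 22.9 (unadjusted p = 0.0355), and U2af2-202 higher, at 218 ± 35.6 and 261 ± 26.9 (unadjusted p = 0.0143). The more abundant U2af2-201 was not called, at 448 ± 46.9 and 426 ± 37.6 (VSD difference −0.024, unadjusted p = 0.324). As in Srsf10, forms of 1 gene, Celf1, were called in both directions, Celf1-208 at 285 ± 111 and 408 ± 99.0 and Celf1-202 at 741 ± 152 and 598 ± 124 (limma, unadjusted p = 0.0381 and 0.0482). The others were Rbm17-201 and Eif4a3-201, lower, and Crnkl1-201, higher. Bclaf1-201 was lost with the depth covariate (unadjusted p = 0.0517), and U2af2-202 and Rbm17-201 both there (unadjusted p = 0.123 and 0.155) and with size factors above 0.8 (unadjusted p = 0.106 and 0.0507). U2af1-201, Crnkl1-201, Celf1-208, Eif4a3-201 and Celf1-202 each lost the call in 7 to 10 of 15 fits with 1 library left out.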

How the data were processed

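Total RNA of dissected cortex was sequenced from 7 Sham and 8 HF-HI mice. The authors prepared stranded libraries after ribosomal RNA depletion, aligned paired reads to mm10 with STAR, apportioned reads among transcripts with eXpress and applied DESeq2. They deposited variance-stabilized values on a log2 scale for 10370 transcripts. The annotation release is not given in the sources used here. Names, types and sequences were taken from GENCODE M21 (GRCm38), which held 10241 of the transcripts, and 129 had no entry.

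The transformation was inverted from the value of a count of 0. After inversion 100% of the values checked, which left out the highest ones, were whole reads within 0.1. These reads are counts as apportioned by eXpress. The lowest mean was 108 normalized counts, so rarer transcripts were not analysed here. Reads in listed transcripts ranged from 3496103 to 10582858 per library, and 1 read was worth 0.679 to 2.0 normalized counts. Counting precision therefore differed between libraries, and other effects of depth were not tested beyond the fits given. No count model was fitted.

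Tests used limma 3.58.1 in R 4.3.3 with group as the only term: eBayes with trend on VSD for transcripts, voom on summed reads for 7741 genes, and log2 odds with 0.5 reads added for shares of 4138 transcripts. All are two-sided, with Benjamini-Hochberg adjustment over the whole table. P-values set the group difference against the spread between these libraries, which eBayes moderates with that of all rows. The study's threshold of 0.1 was kept. Code was tested on simulated data.

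Named transcripts were members at an unadjusted p under 0.05, the most abundant coding transcript of each of a list of genes (Snrpn does not match the rule), member genes and shares called, and up to 10 related transcripts called. Members, lists and tests were chosen with earlier results of these data known. Stretches of 100 bases were compared with all annotated transcripts, singly and not as read pairs, which cover more bases. Alternatives changed the prior, scaling, weights, filter, covariate, replicate block, pseudocount and library set. The subset with a size factor above 0.8 was chosen after seeing the data.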

Additional observations from a re-analysis of the deposited data

Results flagged for a closer look

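Among 72 groups of values examined, each of 7 or 8 libraries, 2 had a single library far from the rest by Dixon's criterion, which chance alone exceeds in about 1 in 20 groups. Hnrnpa1-202 had 1131 normalized counts in HF-HI replicate 2, against a next highest value of 899. This is the library that stood apart on the first principal component. It also had the highest sum of choroid plexus markers, 13832 normalized counts, though Sham libraries reached 11212. The part of either in the Hnrnpa1 value was not tested. Sf3b1-201 had 2748 normalized counts in Sham replicate 7, with the next Sham library at 2588.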

How the results depend on the processing

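The called members, 8 in number, were 2 with the depth covariate (Snrpc-201 of the 8, and Srsf11-202), 2 of 40 with means of at least 300 normalized counts, and 5 with size factors above 0.8 (4 of the 8). Over all transcripts these fits called 533 of 10370, 525 of 5438 and 656 of 10370, against 916 of 10370 in the main fit. The 9 related transcripts became 4 with the filter at 300. The 3 called genes became 1 with size factors above 0.8 and 6 when only coding transcripts were summed. Added in the coding sums were Hnrnpll, Srsf5 and Srsf11, each of which also has listed forms not annotated as coding. Over all genes these fits called 507 of 7741 and 708 of 7527, against 731 of 7741 in the main fit. The called shares, 4 in number, were 2 with the depth covariate (Srsf11-213 of the 4, and Srsf11-202), 2 with size factors above 0.8 (Srsf11-213 and Srsf10-204) and 0 with the filter at 300 on both the transcript and the rest of its gene. Over all shares these fits called 191 of 4138, 192 of 4138 and 109 of 1606, against 254 of 4138 in the main fit. Leaving out 1 library gave 5 to 10 members, 7 to 14 related transcripts (14 without Sham replicate 5), 2 to 6 genes and 3 to 6 shares, and 0 members at the adjusted threshold in each fit. Those fits called 748 to 987 of all transcripts, 610 to 808 of all genes and 223 to 306 of all shares. Replicate numbers did not pair the libraries: deviations of same-numbered libraries correlated at −0.138 to 0.0905 and 1 of 7 matched its own number best. With a replicate block 7 members, 11 related transcripts, 1 gene and 5 shares were called, 4 of the 7 members among the 8. The same fit called 891 of all 10370 transcripts, 697 of 7741 genes and 265 of 4138 shares. Lost under the block were Srsf10-204, Hnrnpk-214, Hnrnpul2-201 (unadjusted p = 0.0533), Snrpc-201 (unadjusted p = 0.0673) and the genes Snrpc (unadjusted p = 0.062) and Hnrnpul2 (unadjusted p = 0.0576). No named transcript, gene or share that was called changed sign in any fit. The causes of these changes were not tested. HF-HI libraries were shallower, so depth and group cannot be fully told apart.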
